A study of Homo sapiens with 9 samples.

Results

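The replicative helicase is the enzyme that unwinds DNA ahead of the polymerases at a replication fork. Its genes were taken by name: MCM2, MCM3, MCM4, MCM5, MCM6 and MCM7, CDC45, and the GINS subunits GINS1, GINS2 and GINS3. All 10 had a probe among the 18354 genes of the array, with 14 probes in all, and 9 of the 10 lay above the filter on dim genes that left 10862 genes to test. GINS has a further subunit, which was not analysed here. The cells were HeyA8 (also labelled Hey8A), a long-established line of human ovarian cancer. They were grown as coculture with cancer-associated fibroblasts and no glutamine, as monoculture with no glutamine, or as monoculture in complete medium. The fibroblasts sat on inserts, so they shared the medium with the cancer cells, and the last medium was on for 24 h before collection. Each of the 3 groups had 3 arrays. Nothing in the labels tells separate experiments from parallel wells, so the spread behind each p-value is that between these samples and could be technical. All of this is 1 cell line, and no coculture with glutamine was analysed here.

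The MCM proteins form a ring that is loaded onto replication origins in the G1 phase by the origin recognition complex, CDC6 and CDT1, and that stays inactive until S phase. CDC45 and GINS then bind the ring and turn it into the active helicase, after phosphorylation by the kinase CDC7 with DBF4 and with the help of TOPBP1, TICRR, RECQL4 and MCM10. Genes of the helicase are switched on by E2F transcription factors as cells enter the cycle, and glutamine supplies nitrogen for the nucleotides that replication consumes. Levels of these RNAs in a culture depend both on how many cells are cycling and on the RNA per cell, and in bulk samples such as these fewer cycling cells and less RNA per cell cannot be told apart.

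The letters of E2F sites are shown because MCM genes are textbook E2F targets, so a search of these genes was likely to find them. Whether the sites had a part in the changes of the members was not tested. Promoters were taken from 250 bases before to 50 bases after the transcription start. Those of 8 members, all but MCM4 and MCM5, were available from RefSeq (GRCh38.p14), 12 promoters in all. They were searched on both strands for TTTCCCGC, TTTCGCGC, TTTGCCGC and TTTGGCGC, the 4 forms of the E2F consensus, with overlapping matches merged into 1 site. MCM2, MCM3, MCM6, MCM7, GINS1, GINS2 and GINS3, 7 of the 8, held at least 1 form. So did 4.0% of all 27305 genes with such promoters, which were not sorted by kind of gene. MCM3, MCM6 and MCM7 held 2 separate sites in 1 promoter, which 0.15% of all genes did. None of these letters stood in the 3 windows of CDC45, which says nothing about binding there. The first site base lies between -187 (MCM7) and 6 (GINS1) relative to the start, and the capitals below mark the matching letters on the strand of the gene.
MCM2, chr3:127598404-127598433, plus strand: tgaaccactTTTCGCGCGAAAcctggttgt
MCM3, chr6:52284730-52284755, minus strand: ttcggaagtTTTCGCGCcggggtgga
MCM3, chr6:52284900-52284925, minus strand: gatggtacgTTTCCCGCcaccgcggg
MCM7, chr7:100101390-100101415, minus strand: ggggcgacgTTTCGCGCcaatttcgg
MCM7, chr7:100101568-100101593, minus strand: gctcggaccGCGGGAAAcccggcgcc
GINS1, chr20:25407669-25407694, plus strand: ctttgttcgGCGCCAAAgcgcggagc
GINS2, chr16:85688969-85688994, minus strand: ctcgccgtgGCGGGAAAacggcggcc
GINS3, chr16:58392457-58392482, plus strand: tccccgggcGCGGGAAAcgagtttca

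MCM6 is shown at greater length because it carries the same 12 letters, TTTGGCGCGAAA, at both of its sites. These letters hold 1 E2F form on each strand. Its 172 bases before the start (chr2:135876444-135876615, minus strand, GRCh38.p14) follow, with the E2F sites and the inverted CCAAT boxes, ATTGG, in capitals.
MCM6: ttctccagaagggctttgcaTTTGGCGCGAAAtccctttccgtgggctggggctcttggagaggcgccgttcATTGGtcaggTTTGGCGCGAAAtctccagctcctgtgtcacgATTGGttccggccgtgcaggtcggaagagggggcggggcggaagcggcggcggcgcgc
CCAAT, on either strand, was found in at least 1 promoter of 6 of the 8 members and of 39.7% of all genes, so it is common in windows of this length. The letters TTTGAA or TTCGAA, used for the cell cycle homology region, were found in 1 of the 8, MCM6, against 19.5% of all genes.

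All levels are log2-like values as deposited, with the gene's brightest probe as its main value. Values pile up at a floor near 7.4, whose upper edge was 7.48, and differences that reach toward it can understate the change. Arrays of 1 group correlated at r from 0.996 to 0.998 over all probes, and the 2 monocultures at r from 0.960 to 0.963, so no array stood apart from its group. The cells carried the keratins KRT7 and KRT8, with group means from 9.73 to 10.51 and from 9.61 to 11.06, and PAX8, a marker of ovarian carcinoma, from 8.51 to 9.23. The epithelial cadherin CDH1 and the ovarian antigen MUC16 were at the floor. Of 13 fibroblast markers, 8 were at the floor in every group: COL1A2, COL3A1, DCN, LUM, PDGFRA, PDGFRB, POSTN and THY1. The mean over the list lay between 7.77 and 7.80 on the coculture arrays, between 7.76 and 7.77 in deprived monoculture and between 7.70 and 7.71 in complete medium. Its 3 brightest members went different ways between coculture and deprived monoculture. ACTA2, smooth muscle actin, averaged 11.13 in coculture against 11.73, TAGLN 8.19 against 7.68, and FAP 7.65 against 7.41. Of the other markers, 4 of 5 leukocyte and 3 of 4 endothelial genes were at the floor. The leukocyte marker above it, CD68, averaged 10.95 in coculture, 11.38 in deprived monoculture and 10.40 in complete medium.

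The comparison of monocultures asks what 24 h without glutamine did to the helicase genes. All 9 tested members fell, by a median of 1.71 on the log2 scale, where the median of all tested genes was 0.02. By the brightest probes GINS2 fell most, to 7.71 ± 0.07 in deprived cells against 9.94 ± 0.05 in complete medium (SD, n = 3 each), and GINS3 least, to 7.80 ± 0.02 against 8.57 ± 0.04. The deprived levels of both lay close to the floor, so both falls may be understated. Calls rest on limma's moderated test over all 10862 genes with Benjamini-Hochberg adjusted p under 0.05, and 24.3% of all genes were called lower by it. At least 2-fold falls were found for 7 of the 9, against 2.70% of all genes. On the array level, the deprived values of all 9 lay below every complete-medium value, as for 26.2% of all genes.

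Deprived coculture was set against deprived monoculture to ask whether fibroblasts changed the helicase genes of deprived cells. All 9 tested members were higher in coculture, by a median of 0.80, where the median of all tested genes was -0.01. Of all genes, 12.7% were called higher. By the brightest probes MCM4 differed most, at 10.17 ± 0.04 in coculture against 8.87 ± 0.14 in deprived monoculture, and MCM2 least, at 8.31 ± 0.01 against 7.97 ± 0.11 (SD, n = 3 each). At least 2-fold differences were found for MCM4 and CDC45, 2 of the 9, against 0.497% of all genes. The coculture values of all 9 lay above every value of deprived monoculture, as for 18.6% of all genes. When a 1.5-fold difference was required as well, 5 of the 9 were called, and MCM2, MCM5, MCM6 and GINS3 were not. By that rule 191 of all 10862 tested genes were called higher. Of the 5 fibroblast markers that were tested, TAGLN and FAP were higher in coculture too, ACTA2 was lower, and COL1A1 and COL6A3 were not called. In complete-medium monoculture TAGLN averaged 7.77, FAP 7.82 and ACTA2 10.19, so FAP was highest there. The part of these markers in the result was not tested, while the 8 markers named above were at the floor.

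Coculture without glutamine did not bring the helicase genes to their level in complete medium. Set against complete medium, which differs in both glutamine and culture, all 9 tested members were lower in deprived coculture, with a median difference of -0.81, where the median of all tested genes was 0.01. Of all genes, 20.7% were called lower and 1.17% were called at least 2-fold lower. The 2 members at least 2-fold lower were GINS2, at 8.52 ± 0.05 in coculture against 9.94 ± 0.05, and MCM6, at 9.90 ± 0.11 against 11.01 ± 0.09. GINS3 came closest, at 8.35 ± 0.06 in coculture against 8.57 ± 0.04 in complete medium. All 9 coculture ranges lay below the complete-medium range, as for 24.8% of all genes. The order was therefore the same in the 9 genes, with complete medium highest, coculture in between and deprived monoculture lowest, and no neighbours in that order overlapped. These comparisons share arrays with each other, so their directions are not independent of one another.

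**Figure D1:**
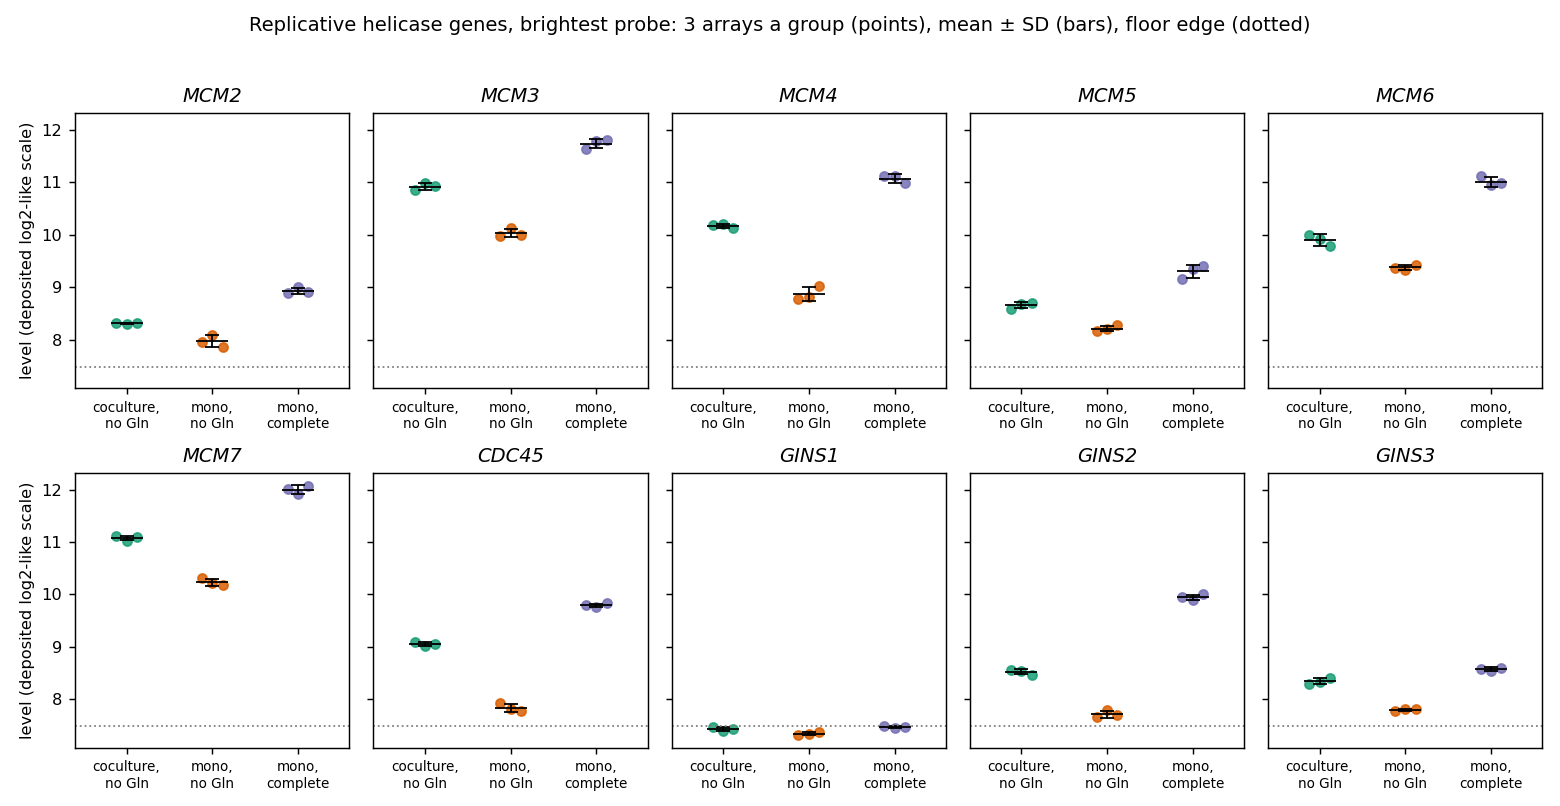
Levels of the 10 helicase genes on the deposited log2-like scale, for the brightest probe of each gene, in coculture without glutamine, monoculture without glutamine and monoculture in complete medium (points, 3 arrays a group; bars, mean ± SD; dotted line, upper edge of the floor at 7.48). In 9 genes the 3 groups do not overlap and coculture lies between the monocultures, while GINS1 stays at the floor.

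Among the brightest probes of the ring subunits, that of MCM4 differed most both with deprivation and between coculture and deprived monoculture. MCM4, which is phosphorylated by CDC7 with DBF4 when origins fire, read 10.18, 10.20 and 10.12 on the coculture arrays, 8.77, 8.81 and 9.03 in deprived monoculture and 11.12, 11.12 and 10.98 in complete medium. The group ranges are far apart compared with the spread inside each. It was 4.6-fold lower in deprived than in complete-medium monoculture (log2 difference -2.2, SE 0.072; limma adjusted p = 9.63e-16). It was 2.46-fold higher in coculture than in deprived monoculture (1.30, SE 0.072; limma adjusted p = 5.06e-11). In that comparison 0.203% of all tested genes lay as high.

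MCM7 and MCM3 followed, with values well above the floor in every group. MCM7, the subunit that is ubiquitylated when the helicase is taken off DNA at the end of replication, read 11.11, 11.02 and 11.09 in coculture, 10.31, 10.22 and 10.17 in deprived monoculture, and 12.01, 11.91 and 12.07 in complete medium. It fell 3.39-fold with deprivation (-1.76, SE 0.064) and was 1.79-fold higher in coculture than in deprived monoculture (0.84, SE 0.064). MCM3, whose tail contacts the loading factors ORC and CDC6 in budding yeast, read 10.86, 10.99 and 10.93 in coculture, 9.98, 10.12 and 9.99 in deprived monoculture, and 11.63, 11.78 and 11.80 in complete medium. It fell 3.26-fold (-1.71, SE 0.068) and was 1.86-fold higher in coculture (0.89, SE 0.068). In both genes the coculture arrays lay near the middle of the range spanned by the monocultures.

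MCM6 lost much to deprivation and differed less in coculture. MCM6, the subunit that binds CDT1 during loading, read 10, 9.91 and 9.78 in coculture, 9.37, 9.33 and 9.43 in deprived monoculture, and 11.12, 10.94 and 10.99 in complete medium. It fell 3.12-fold with deprivation (-1.64, SE 0.070; limma adjusted p = 7.25e-14). It was 1.44-fold higher in coculture than in deprived monoculture (0.52, SE 0.070; limma adjusted p = 1.01e-05) and 2.17-fold lower in coculture than in complete medium.

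MCM2 and MCM5, which face each other across the gate of the ring, had the smallest differences among its subunits by the brightest probes. MCM2, which also binds histones, read 8.32, 8.30 and 8.31 in coculture, 7.96, 8.09 and 7.86 in deprived monoculture, and 8.88, 9.0 and 8.91 in complete medium. It fell 1.94-fold (-0.96, SE 0.063) and was 1.27-fold higher in coculture than in deprived monoculture (0.34, SE 0.063; limma adjusted p = 0.000365). MCM5 read 8.59, 8.68 and 8.70 in coculture, 8.16, 8.20 and 8.27 in deprived monoculture, and 9.16, 9.34 and 9.40 in complete medium. It fell 2.13-fold (-1.09, SE 0.067) and was 1.36-fold higher in coculture (0.45, SE 0.067; limma adjusted p = 4.34e-05). For neither gene did any arrays of different groups overlap.

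CDC45 and GINS2, which activate the ring, fell by more with deprivation than any ring subunit other than MCM4 on the brightest probes. CDC45, which binds the ring at the start of S phase and stays with the fork, read 9.09, 9.01 and 9.05 in coculture, 7.92, 7.81 and 7.77 in deprived monoculture, and 9.79, 9.76 and 9.83 in complete medium. It was 3.89-fold lower in deprived than in complete-medium monoculture (-1.96, SE 0.061; limma adjusted p = 3.73e-16). It was 2.33-fold higher in coculture than in deprived monoculture (1.22, SE 0.061; limma adjusted p = 1.13e-11). GINS2 read 8.55, 8.54 and 8.46 in coculture, 7.65, 7.79 and 7.70 in deprived monoculture, and 9.94, 9.89 and 10 in complete medium. Its deprived level lay close to the floor, so its 4.69-fold fall (-2.23, SE 0.061) and the 1.75-fold higher level in coculture (0.80, SE 0.061) may be understated. It was 2.69-fold lower in coculture than in complete medium (-1.43, SE 0.061; limma adjusted p = 1.92e-13), and 0.488% of all tested genes lay as low in that comparison.

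GINS3 and GINS1 belong to the same complex as GINS2, in which each subunit is present once, but gave other values. GINS3 read 8.29, 8.33 and 8.41 in coculture, 7.77, 7.81 and 7.81 in deprived monoculture, and 8.58, 8.53 and 8.60 in complete medium. It fell 1.71-fold with deprivation (-0.77, SE 0.055) and was 1.46-fold higher in coculture than in deprived monoculture (0.55, SE 0.055). As for GINS2, its deprived level lay close to the floor, so both differences may be understated. Coculture and complete medium differed by -0.23 (SE 0.055; limma adjusted p = 0.00225), and 14.3% of all tested genes lay as low. GINS1, which connects the complex to DNA polymerase epsilon, read 7.47, 7.39 and 7.42 in coculture, 7.32, 7.33 and 7.37 in deprived monoculture, and 7.48, 7.44 and 7.47 in complete medium. Its only probe was at the floor in every group, so it was not tested, and its level in these cells cannot be read from the array. Without the filter on dim genes its difference with deprivation was -0.12 (SE 0.033; limma adjusted p = 0.00536) and that of coculture against deprived monoculture 0.08 (limma adjusted p = 0.101).

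**Figure D2:**
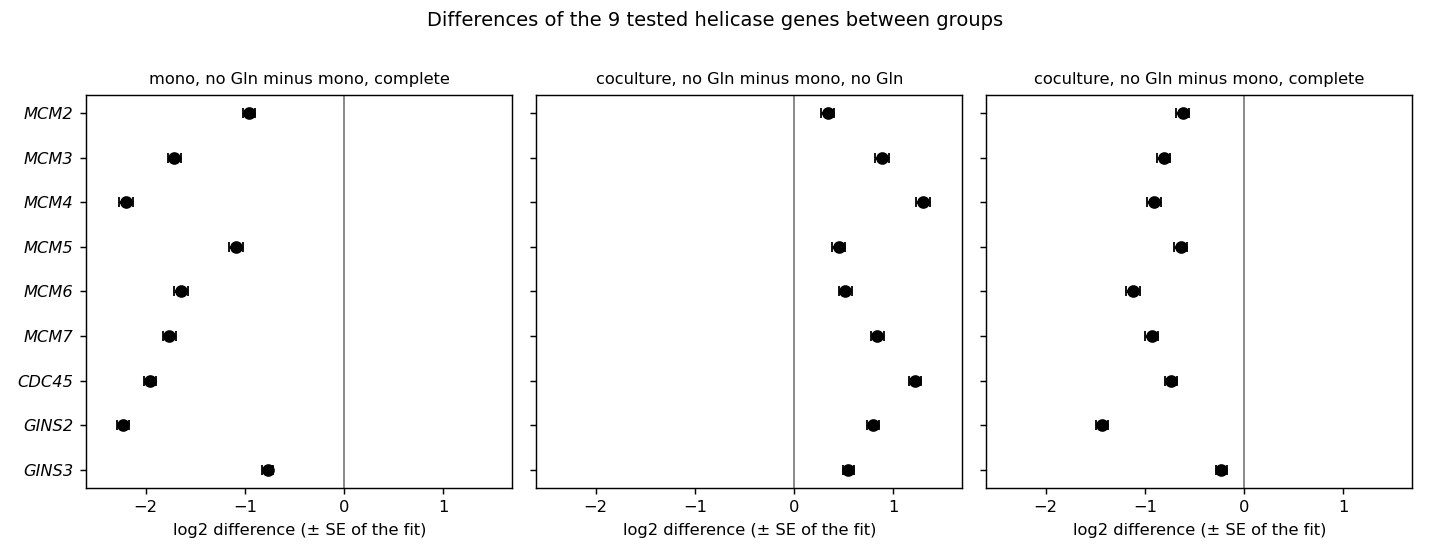
Log2 differences with the SE of the fit (n = 3 arrays a group) for the 9 tested helicase genes in the 3 comparisons named above each panel. All lie left of 0 for deprivation and for coculture against complete medium, and right of 0 for coculture against deprived monoculture. Against complete medium GINS2 is lowest at -1.43 and GINS3 nearest to 0 at -0.23.

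The coculture level can also be read as a position between the monocultures, with the mean of deprived monoculture at 0% and that of complete medium at 100%. This is a description of the same levels, given as the mean and range over the 3 coculture arrays. GINS3 stood highest, at 70.9% (64.4 to 79.5%), followed by CDC45 at 62.1% (60.1 to 64.3%) and MCM4 at 58.8% (56.7 to 60.3%). MCM3, MCM7 and MCM5 stood at 52.4%, 47.5% and 40.9%. GINS2 at 36.1% (33.6 to 37.7%), MCM2 at 35.5% (34.2 to 36.8%) and MCM6 at 32.0% (24.8 to 38.2%) stood lowest. The arrays of the last 3 overlapped with each other and none reached those of CDC45, MCM4 or GINS3. GINS3 had the narrowest gap between the monocultures, 0.77, and the widest range of percentages. The order is that of the brightest probes. The second MCM4 probe stood at 46.9% (41.0 to 55.1%), below the range of the brightest, and the second MCM3 probe at 44.3% (38.0 to 52.3%), a check added after the data were seen. GINS3, CDC45, GINS2 and MCM2 had the deprived levels nearest to the floor, between 7.71 and 7.97, which can shift their percentages.

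The probes' movement against each other was described by subtracting, on each array, the mean of the MCM2-7 probes from each member. The shifts are those of single probes and do not show that the RNAs changed by unequal amounts, because probes of 1 gene differed as well: with deprivation the brightest and second probes gave -2.2 and -1.57 for MCM4, and -1.71 and -1.28 for MCM3. The dimmer probe had the smaller difference in both genes, and the part of probe response and of the floor in the shifts was not tested. Each MCM subunit is also part of the mean subtracted from it, so the shifts of the 6 subunits sum to 0 by construction and some must be positive where others are negative. With deprivation, the shift against complete medium was positive for MCM2 (0.60), MCM5 (0.47) and GINS3 (0.78), whose deprived levels lay between 7.80 and 8.21. It was negative for MCM4 (-0.64), GINS2 (-0.67), CDC45 (-0.40) and MCM7 (-0.20), whose deprived levels were 8.87, 7.71, 7.83 and 10.23. In these 7 of the 9 tested members the arrays of the groups did not overlap, while those of MCM3 (-0.15) and MCM6 (-0.08) did. How many of all tested genes would not overlap by this measure was not counted. The mean subtracted was 9.09 to 9.13 in deprived monoculture, 9.82 to 9.85 in coculture and 10.65 to 10.69 in complete medium. A gene outside the ring with a steady level would therefore show no overlap either. Between coculture and deprived monoculture, MCM4 (0.57), CDC45 (0.50) and MCM3 (0.17) had positive shifts. MCM2 (-0.38), MCM5 (-0.28), MCM6 (-0.20) and GINS3 (-0.17) had negative ones, again with no overlap in these 7, and GINS2 (0.08) and MCM7 (0.11) overlapped. Between coculture and complete medium the arrays did not overlap for 6 of the 9, among them GINS2 (-0.59) and GINS3 (0.61), and MCM4 differed by -0.07 with overlap. The two-sided exact permutation test gave p = 0.1 wherever arrays did not overlap, the smallest that 3 arrays against 3 can give, so none of these shifts can pass 0.05. Adjusted over the 30 tests, which include GINS1, these p-values were 0.13. Which members overlapped depended on the mean subtracted. The mean of all 10 members includes GINS1, whose probe was at the floor and shifted by 1.44 with deprivation relative to MCM2-7. A change of the mean subtracted moves every member by the same amount within a comparison. GINS1, at the floor, is part of that amount, and a mean of the 9 tested members was not tried. Relative to the mean of all 10, no member overlapped with deprivation, and MCM3 was -0.26, MCM6 -0.19 and MCM7 -0.32, all moved by over 1.5 times. Against complete medium, coculture then gave -0.16 for MCM4 with no overlap, 0.10 for MCM5 with overlap and 0.00 for CDC45 with overlap.

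**Figure D3:**
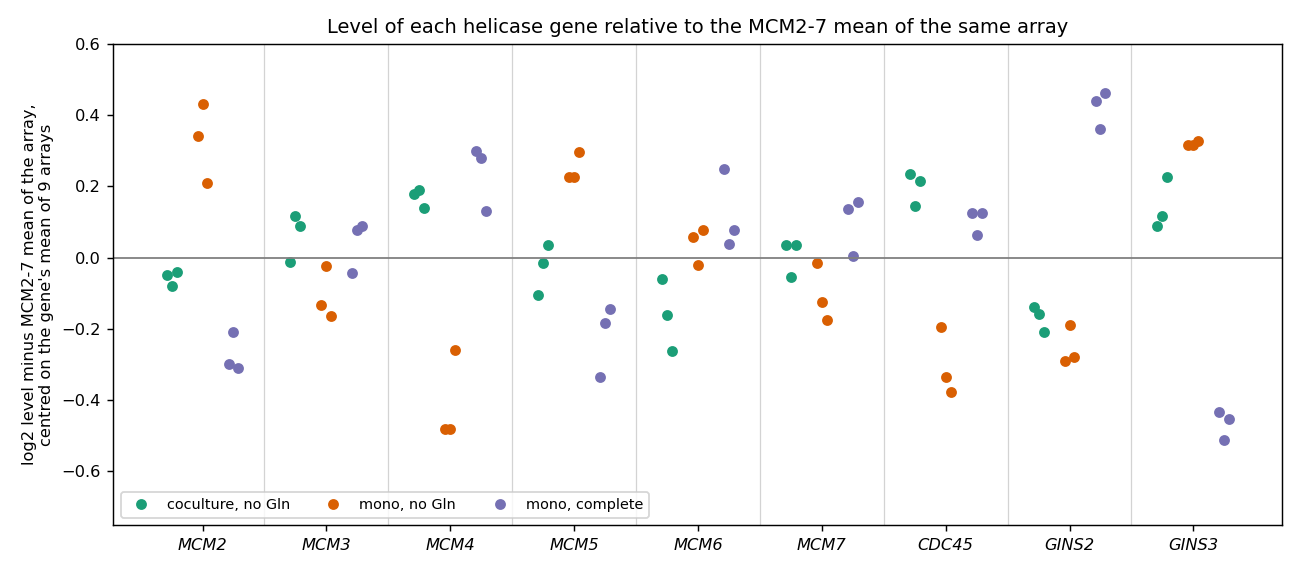
Level of each tested helicase gene minus the mean of the MCM2-7 probes on the same array, in log2 units and centred on the gene's own mean over the 9 arrays (points, 1 array each; 3 arrays for coculture without glutamine, monoculture without glutamine and monoculture in complete medium). MCM4 and CDC45 lie lowest in deprived monoculture, MCM2, MCM5 and GINS3 highest there, and GINS2 lies highest in complete medium.

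Several members have more than 1 probe, and the second probes show how far the sizes depend on the choice. The second MCM3 probe averaged 8.56 ± 0.09 in coculture, 7.99 ± 0.10 in deprived monoculture and 9.27 ± 0.04 in complete medium. It fell by 1.28 with deprivation and was 0.57 higher in coculture than in deprived monoculture. The second MCM4 probe averaged 8.72 ± 0.11, 7.98 ± 0.10 and 9.55 ± 0.19 in the same order, with differences of -1.57 for deprivation and 0.74 for coculture. Both second probes kept the direction and the call of the brighter probe in all 3 comparisons (limma adjusted p over all probes at most 5.15e-07), with smaller differences. MCM7 has 3 probes, of which 2 lay at or near the floor. One averaged 7.48 ± 0.03 in coculture, 7.42 ± 0.05 in deprived monoculture and 7.67 ± 0.01 in complete medium, which is lower with deprivation (-0.25; limma adjusted p = 3.87e-05) and not called between coculture and deprived monoculture (0.06; limma adjusted p = 0.515). The other averaged 7.39 ± 0.06, 7.41 ± 0.04 and 7.43 ± 0.04 and was called in none of the comparisons. With the mean of its probes, MCM7 still fell (-0.68; limma adjusted p = 1.24e-08) and was still higher in coculture (0.29; limma adjusted p = 0.000177). The relative levels depend on this choice. With the mean of each gene's probes, MCM7 relative to MCM2-7 was 0.61 with deprivation in place of -0.20, -0.26 between coculture and deprived monoculture in place of 0.11, and 0.35 between coculture and complete medium in place of -0.09. With deprivation, MCM2 was then 0.33 in place of 0.60, MCM5 0.20 in place of 0.47 and MCM6 -0.35 in place of -0.08. MCM2, MCM4, MCM5, CDC45, GINS2 and GINS3 kept their direction with deprivation. GINS3 was near 0 (-0.01) between coculture and deprived monoculture in place of -0.17, and CDC45 was -0.01 against complete medium in place of 0.09. MCM2, MCM5, MCM6, CDC45, GINS2 and GINS3 have 1 probe each, so for them only the mean subtracted changed, by the same amount for all. That mean includes MCM7, at -0.68 with deprivation in place of -1.76, with 2 of its 3 probes at or near the floor.

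Among all tested genes, the members stood toward the low end with deprivation and toward the high end in coculture. GINS2 ranked 58 from the lowest of 10862 genes with deprivation, MCM4 64 and CDC45 83, and GINS3, with the smallest difference, 450. In coculture against deprived monoculture, MCM4 ranked 22 from the highest, CDC45 31, MCM3 67, MCM7 83 and GINS2 93, and MCM2 ranked 505. In each comparison other tested genes therefore lay beyond every member.

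**Figure D4:**
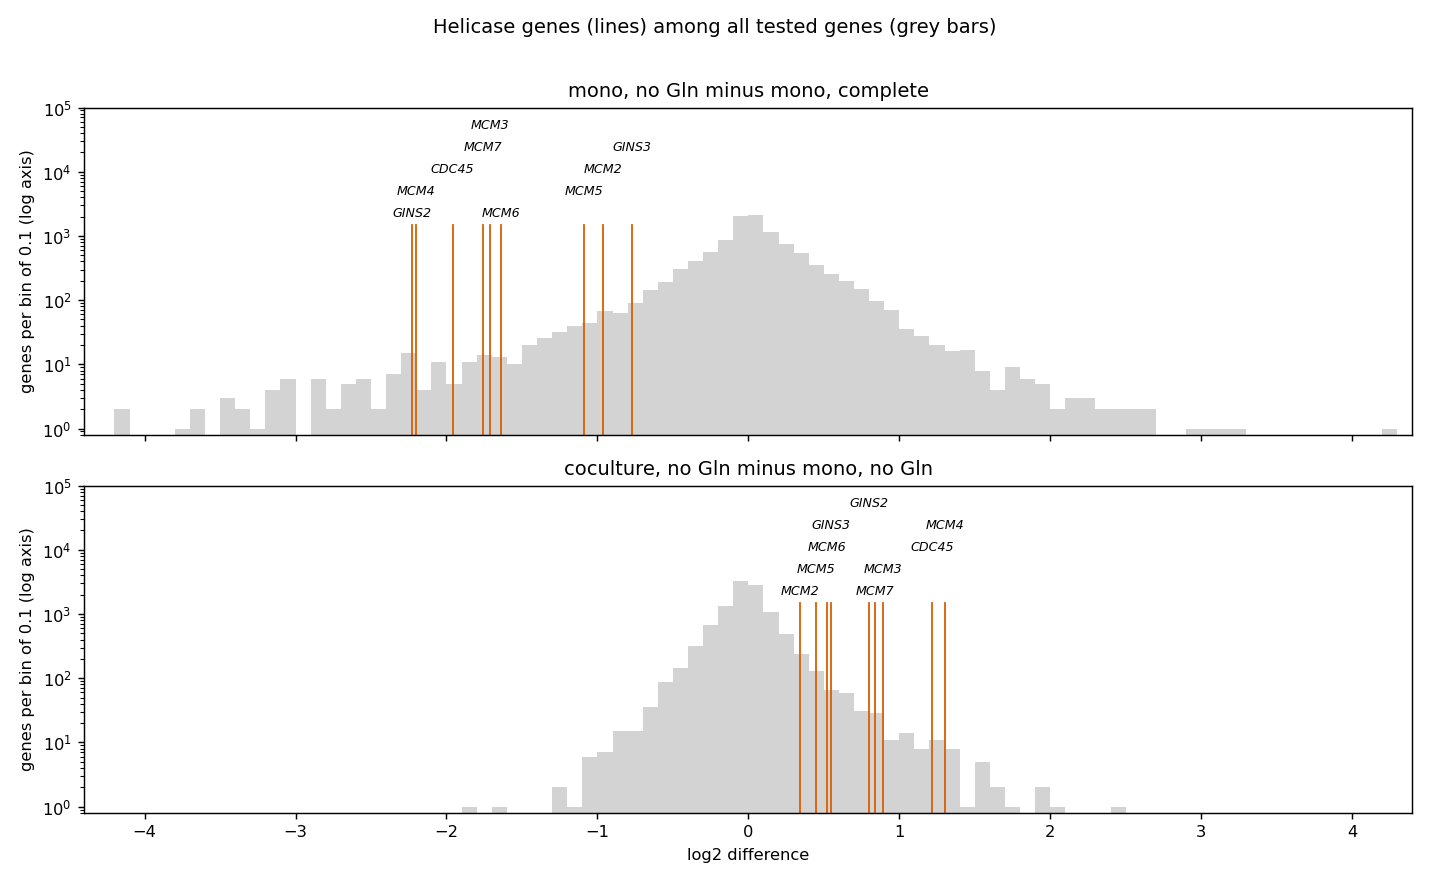
Log2 differences of all 10862 tested genes (grey bars, genes per bin of 0.1 on a log axis) with the 9 tested helicase genes as lines, for deprived against complete-medium monoculture (top) and for coculture against monoculture without glutamine (bottom). The members lie between -2.23 and -0.77 in the top panel and between 0.34 and 1.30 in the bottom panel.

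Other genes of replication were set beside the helicase by lists. In the direction of the members, 24.3% of all tested genes were called lower with deprivation, 12.7% higher in coculture against deprived monoculture, and 20.7% lower in coculture against complete medium. Some genes of the lists went against the members. Of all tested genes 30.0% were called higher with deprivation, 15.1% lower in coculture against deprived monoculture, and 22.3% higher in coculture against complete medium. The origin licensing list of 9 genes, which load the ring or restrain its loading, had 7 tested, of which 5 fell with deprivation and 1 rose, with a median of -0.35. GMNN, the inhibitor of CDT1, fell by 1.72 on the log2 scale, and the ORC subunits ORC6 (-1.23) and ORC1 (-0.35) fell as well. ORC5 went the other way, higher with deprivation (0.42) and lower in coculture than in deprived monoculture (-0.45). In coculture 4 of the 7 were higher and 1 lower, with GMNN at 0.88 and ORC6 at 0.55. Against complete medium 4 of the 7 were lower in coculture and 0 higher, with GMNN at -0.85, ORC6 at -0.68 and ORC1 at -0.20. CDC6 was below the filter on dim genes and CDT1 was not analysed here.

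The helicase activation and fork factors that were called went the same way as the members. All 10 tested of 13 fell with deprivation (median -0.81), led by MCM10 (-1.67, SE 0.064), TIMELESS, a fork protection factor (-1.58, SE 0.064), and the kinase CDC7 (-1.46, SE 0.065). In coculture 8 of the 10 were higher than in deprived monoculture and 0 lower (median 0.33), with MCM10 at 1.09, CDC7 at 0.69 and TIMELESS at 0.67. Against complete medium 9 of the 10 were lower in coculture, led by TIMELESS (-0.91), CDC7 (-0.77) and the replication factor DONSON (-0.61). The kinase's partner DBF4 and the checkpoint mediator CLSPN were below the filter on dim genes.

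Primase and the replicative polymerases gave a more mixed picture. With deprivation 9 of 11 tested fell and 1 rose (median -0.47). The 3 with the smallest p were PRIM1, the catalytic subunit of primase (-1.77), POLE2 of polymerase epsilon (-1.45) and POLA2 of polymerase alpha (-1.35), while POLD4, a small subunit of polymerase delta, was 0.16 higher. In coculture 7 of the 11 were higher than in deprived monoculture and 0 lower, PRIM1 by 1.31 and POLE2 and POLA2 by 0.60 each (median 0.28). Against complete medium 9 were lower in coculture, among them POLE2 (-0.86), POLD1 of polymerase delta (-0.77) and POLA2 (-0.74), and 1, POLD4 (0.28), was higher.

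Relatives of the ring subunits outside the helicase moved little. MCM8, which acts in recombination, was lower with deprivation (-0.19, SE 0.044; limma adjusted p = 0.00102), and its difference in coculture was 0.10 (limma adjusted p = 0.0856). MCMBP, which binds free MCM proteins, differed by -0.07 with deprivation (limma adjusted p = 0.215). Both lay close to the floor, at 7.5 and 7.49 in deprived monoculture, and the other 2 of the 4 genes were below the filter.

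The E2F factors did not move as one. Of 6 tested, E2F2, an activator, was lower with deprivation (-0.48, SE 0.049), and E2F4 (0.60, SE 0.065) and E2F7 (0.31, SE 0.066), which act mainly as repressors, were higher. These counts, 1 lower and 2 higher of 6, stand beside 24.3% lower and 30.0% higher of all tested genes. E2F1, the best known activator, averaged 8.51 in coculture, 8.34 in deprived monoculture and 8.20 in complete medium, with a deprivation difference of 0.14 (SE 0.096; limma adjusted p = 0.229). In coculture E2F7 was lower than in deprived monoculture (-0.29, SE 0.066) and E2F2 higher (0.18, SE 0.049). Against complete medium 4 were higher in coculture, E2F4 by 0.43 and E2F1 and E2F5 by 0.31 each, and E2F2 was lower (-0.29). These are RNA levels, and E2F activity was not measured.

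**Figure D5:**
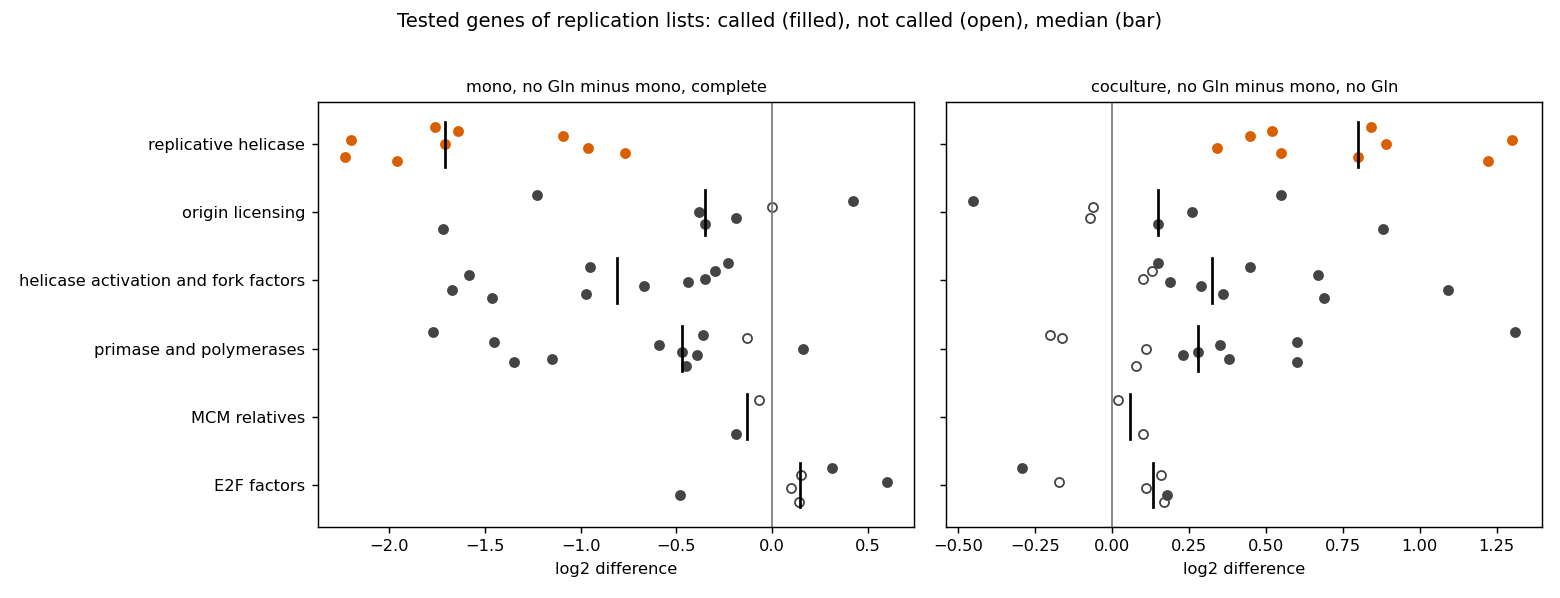
Log2 differences of the tested genes of the replicative helicase (9), origin licensing (7), helicase activation and fork factors (10), primase and polymerases (11), MCM relatives (2) and E2F factors (6), for deprived against complete-medium monoculture (left) and for coculture against monoculture without glutamine (right). Filled points were called, open points were not, and bars mark the medians, which for the helicase are -1.71 and 0.80.

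The genes most like the members in pattern were found by Pearson's r over the 9 arrays with the mean of the 10 members' main probes. PTTG1, the securin that guards sister chromatid separation, came first at r = 0.9991, followed by NCAPG, a condensin subunit (0.9989), TOP2A, the topoisomerase of dividing cells (0.9988), STIL, a centriole duplication factor (0.9988), and CENPW, a centromere protein (0.9987). PTTG1 averaged 11.05 ± 0.02 in coculture, 9.40 ± 0.09 in deprived monoculture and 12.78 ± 0.04 in complete medium (SD, n = 3 each). The 9 arrays fall into 3 groups, which set most of such an r, and 591 of 10853 other genes had r over 0.95. Each member's own r with the mean of the others was between 0.958 (GINS3) and 0.996 (MCM7) for the 9 tested, and 0.866 for GINS1 at the floor.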

How the data were processed

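Total RNA of 9 samples was measured on Illumina bead arrays. The deposited values are log2-like, 1 per probe and array, for 34476 probes. Per the submitters' processing notes the authors used lumi; the sources used here give neither its version, its background correction nor its scale (plain log2 or variance-stabilised), and folds assume log2. Array medians lay between 7.4706 and 7.4731, so differences are relative to the other probes. Precision is limited by having 3 arrays a group.

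Probes with 1 gene symbol in the platform annotation (26366; 3 had several, 8107 none) gave 18354 genes. A gene took its brightest probe and was tested when its mean exceeded 7.46, the median of all probe means. Differences came from limma 3.58.1 (lmFit, then eBayes with a trend; R 4.3.3), 1 mean per group over all 9 arrays, two-sided, Benjamini-Hochberg over 10862 genes, called at 0.05, and the script was tested on simulated data. Python 3.11.15, numpy 2.4.6, pandas 2.3.3, scipy 1.17.1 and matplotlib 3.10.9 made tables, exact tests and plots. The genes named were all 10 members, up to 3 called genes per replication list and comparison by smallest p with those called against their list, the 5 most correlated genes (the same within residuals is not reported, since only 6 residual degrees of freedom lie behind such an r) and the 3 brightest fibroblast markers; CDC6, CDT1, DBF4, CLSPN, MCMBP, E2F1, the epithelial and ovarian markers and genes next to members were named after their values were seen. The members and lists were chosen with earlier results of these data known. Alternatives were other probe choices, filters, scalings, variance models, sample sets, thresholds and left-out arrays.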

Additional observations from a re-analysis of the deposited data

How the results depend on the processing

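The 9 tested members kept direction and call in each comparison under every scaling, filter, probe choice, variance model, sample set and left-out array that was run, with the largest adjusted p being 0.0149, for GINS3 in coculture against complete medium. The exceptions came from asking for a fold of at least 1.5: coculture against deprived monoculture then called 5 members rather than 9, and GINS3 (-0.23) was no longer called against complete medium. Without the filter on dim genes GINS1 was called lower with deprivation too. That further condition on fold also left, of all genes, 685 of 2644 lower and 714 of 3254 higher with deprivation, 90 of 1642 lower and 191 of 1380 higher in coculture against deprived monoculture, and 384 of 2245 lower and 312 of 2425 higher in coculture against complete medium. At adjusted p under 0.01, 1039 rather than 1642 genes were lower in coculture than in deprived monoculture. Without the filter, 2 E2F factors rather than 1 were lower with deprivation. Same-numbered arrays of different groups had residual correlations from -0.259 to 0.213, so the numbers were not taken as pairs. With a replicate block, 9 members were again called in each comparison, and of all genes 2608 were lower with deprivation and 1317 higher in coculture against deprived monoculture; the block changed no other call on the members. With the mean of all probes, relative to MCM2-7, MCM7 was 0.61 with deprivation, opposite to its brightest probe (-0.20). Of the 3 MCM7 probes in that mean, 2 lay at or near the floor. CDC45 was then near 0 (-0.01) in coculture against complete medium in place of 0.09. It has 1 probe, so only the mean subtracted had changed. The position of MCM4 between the monocultures was 46.9% by its second probe, an alternative chosen after seeing the data, against 58.8%. GINS1 and levels of GINS2, GINS3 and CDC45 in deprived cells are limited by signal over the floor.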

Other observations

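Genes that lie within 1000 bases of a member on the reference were looked at after the members' values were seen. PRKDC, the DNA repair kinase next to MCM4, averaged 10.28 ± 0.06 in coculture, 10.14 ± 0.06 in deprived monoculture and 10.36 ± 0.09 in complete medium (SD, n = 3 each), a deprivation difference of -0.22 (limma adjusted p = 0.00695) beside -2.2 for MCM4. COPS6, a subunit of the COP9 signalosome next to MCM7, averaged 8.53 ± 0.03 in coculture, 8.40 ± 0.01 in deprived monoculture and 9.03 ± 0.02 in complete medium. It was lower with deprivation (-0.64; limma adjusted p = 5.4e-09), and its difference between coculture and deprived monoculture was 0.13 (limma adjusted p = 0.079). AP4M1 next to MCM7, UFD1 next to CDC45 and GSE1 next to GINS2 were called in no comparison, with differences from -0.07 to 0.08. AP4M1 lay near the floor, and so did UFD1, with group means from 7.58 to 7.63. TPRA1, next to MCM2, was not tested.

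The miRNA genes MIR25, MIR93 and MIR106B are hosted by MCM7. Their probes were at the floor in every group, with means from 7.37 to 7.47, so the host's changes could not be followed in them.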
